A study of Mus musculus with 20 samples.

Results

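The replication-dependent histone genes of cultured mouse motoneurons were followed in 20 RNA-seq libraries. Members were all genes annotated as protein-coding whose symbol begins with Hist1h, Hist2h, Hist3h or Hist4, which gave 68 of 39174 genes in the files and 68 of 22736 protein-coding genes. They comprised 6 linker histone H1 genes, 19 H2A genes, 18 H2B genes, 12 H3 genes and 13 H4 genes. On the GRCm38 build, 55 of them lay on chromosome 13, 10 on chromosome 3, 2 on chromosome 11 and 1 on chromosome 6. The cells were spinal cord motoneurons of CD-1 mouse embryos, enriched by binding to an antibody against the p75 neurotrophin receptor and grown for a week in microfluidic chambers, in which axons pass through narrow channels away from cell bodies and dendrites. Total RNA was collected from the somatodendritic and from the axonal side and amplified by PCR as whole transcriptome libraries. Control motoneurons (4 somatodendritic and 4 axonal libraries) carried an empty lentiviral vector and are titled GFP, and Tdp-43 knockdown motoneurons (6 somatodendritic and 6 axonal libraries) carried a lentiviral short hairpin RNA against Tdp-43, an RNA-binding protein encoded by Tardbp. The study's methods state that both conditions were handled side by side, and that the control data had been described in earlier work; the labels name no batch, and the part of any batch in the results was not tested. The labels name no culture, so that the p-values below measure the spread between these libraries, which may be technical.

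Histones are the proteins around which DNA is wrapped: H2A, H2B, H3 and H4 form the nucleosome core and H1 binds the linker DNA between nucleosomes. The replication-dependent genes are clustered, mostly lack introns and are expressed mainly in S phase, when newly copied DNA is packed. Their mRNAs usually end in a conserved stem-loop bound by the protein Slbp and carry no poly(A) tail, although some members also give polyadenylated mRNAs in differentiated cells. Motoneurons do not divide, and in bulk RNA a smaller number of cells of a type cannot be told apart from less RNA per cell.

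The 3′ stem-loop is the sequence that sets these mRNAs apart, and its forms are shown here because they differ by histone class, the grouping used throughout. Transcripts of all 68 members were found in GENCODE M21 (GRCm38), 61 by gene ID and 7 by symbol. A 16-base stem-loop was present in the annotated transcripts of 46 members, and 26 of these had the form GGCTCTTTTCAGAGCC, which was searched on the transcript strand. That form was found in transcripts of 28 of 21901 protein-coding genes (0.128%), 2 of which have no Hist symbol. No match says only that these letters are not in the annotated transcript, which for some members, such as Hist1h4k, holds the coding sequence alone. The following stretches are written 5′ to 3′ on the transcript strand, with the stem-loop in capitals, from members that carry results below and from one member of each rarer form.
Hist1h2bh (chr13:23542923-23542948, minus strand): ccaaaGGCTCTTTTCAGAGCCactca
Hist1h1c (chr13:23739507-23739532, plus strand): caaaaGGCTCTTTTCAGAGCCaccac
Hist1h2bj (chr13:22043633-22043658, plus strand): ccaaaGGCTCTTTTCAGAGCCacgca
Hist1h2bk (chr13:22036295-22036320, plus strand): ccaaaGGCTCTTTTAAGAGCCactaa
Hist1h3f (chr13:23544927-23544952, plus strand): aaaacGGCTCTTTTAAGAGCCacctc
Hist1h3g (chr13:23535884-23535909, plus strand): ttaaaGGCTCTTCTTAGAGCCaccca
Hist1h4d (chr13:23581945-23581970, plus strand): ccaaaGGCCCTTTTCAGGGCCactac
Hist1h4j (chr13:21735432-21735457, plus strand): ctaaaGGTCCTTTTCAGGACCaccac
Hist2h4 (chr3:96262934-96262959, minus strand): ctaacGGCCCTTTTTAGGGCCaacca
Hist1h4a (chr13:23760795-23760820, minus strand): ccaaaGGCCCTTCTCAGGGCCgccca
Hist2h2ac (chr3:96220413-96220438, minus strand): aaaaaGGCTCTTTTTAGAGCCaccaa
The form of Hist1h2bh, Hist1h1c and Hist1h2bj was found in 3 of 6 H1, 10 of 19 H2A, 8 of 18 H2B and 5 of 12 H3 members, and in 0 of 13 H4 members. The H4 members had other stems: 7 had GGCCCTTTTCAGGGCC as in Hist1h4d, 2 had GGTCCTTTTCAGGACC as in Hist1h4j, 2 had the form of Hist2h4, and 1, Hist1h4a, had a form of its own. The form of Hist1h2bk and Hist1h3f, with another base in the loop, was found in 6 members, and those of Hist1h3g and Hist2h2ac in 1 member each. The polyadenylation signal AATAAA was found in the last 50 bases of an annotated transcript of 15 members, among them Hist1h1c, Hist1h4j, Hist2h4, Hist2h2be and Hist3h2a.

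Many members are near copies of each other, so that their values are not independent. Of 50-base windows of the longest annotated transcript, the median member shared 48.1% with at least 1 other member. More than 50% of the windows were shared in 31 members, and at least 1 window was shared in 61. The class medians were 1.1% for H1, 67.6% for H2A, 42.7% for H2B, 57.2% for H3 and 39.5% for H4. Hist1h2bq shared 97.3% of its windows and Hist1h2ao 93.5%, whereas Hist1h1a, Hist1h1b, Hist3h2ba, Hist2h2be and Hist4h4 shared none. Single values of members with shared sequence depend on how the authors' software divided reads and are uncertain, and class sums are less affected by that division. In GENCODE M21 the ID given to Hist2h2bb belongs to a long non-coding RNA gene and that of Hist1h2al to a processed pseudogene, although the files list both as protein-coding.

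The libraries were shallow for these genes. The width of the interval that accompanies each FPKM value gave an implied number of fragments, which summed over all members to between 43.9 and 622 per library, and the median member had 1.46 implied fragments per library. Only 12 members had a median of 5 or more. For members with shared sequence the implied number is not a plain read count. Relative depth, set to 1 in the deepest library, was 0.530 to 1 in the control libraries, 0.143 to 0.698 in the somatodendritic and 0.103 to 0.761 in the axonal knockdown libraries. Somatodendritic knockdown replicate 6, at 0.143, had 17 of 19 H2A members listed at 0, against at most 4 in any other library, and axonal knockdown replicate 5, at 0.103, had 25 of 68 members listed at 0. Tardbp was 19.0 to 30.8 FPKM in the somatodendritic control libraries and 0 to 8.54 FPKM in the knockdown libraries, but the axonal library labelled knockdown replicate 1 held 33.2 FPKM, above all 4 axonal control libraries (13.4 to 32.3 FPKM). Motoneuron markers were sparse: of 9 in the files, 3 were listed at 0 in all somatodendritic control and 5 in all axonal control libraries.

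Nearly every member was detected, mostly at low level. Of the 68 members, 66 were above 0 in at least 1 library, 20 in all 20 libraries, and 64 had a mean of at least 1 FPKM (fragments per kilobase of transcript, scaled to the mapped fragments of the library, and so a level per length). The members listed at 0 throughout were Hist1h1t and Hist1h2aa, both known as testis histone genes. The median member averaged 10.4 FPKM over 20 libraries, 35 members reached 10 FPKM and 4 reached 50 FPKM.

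**Figure D1:**
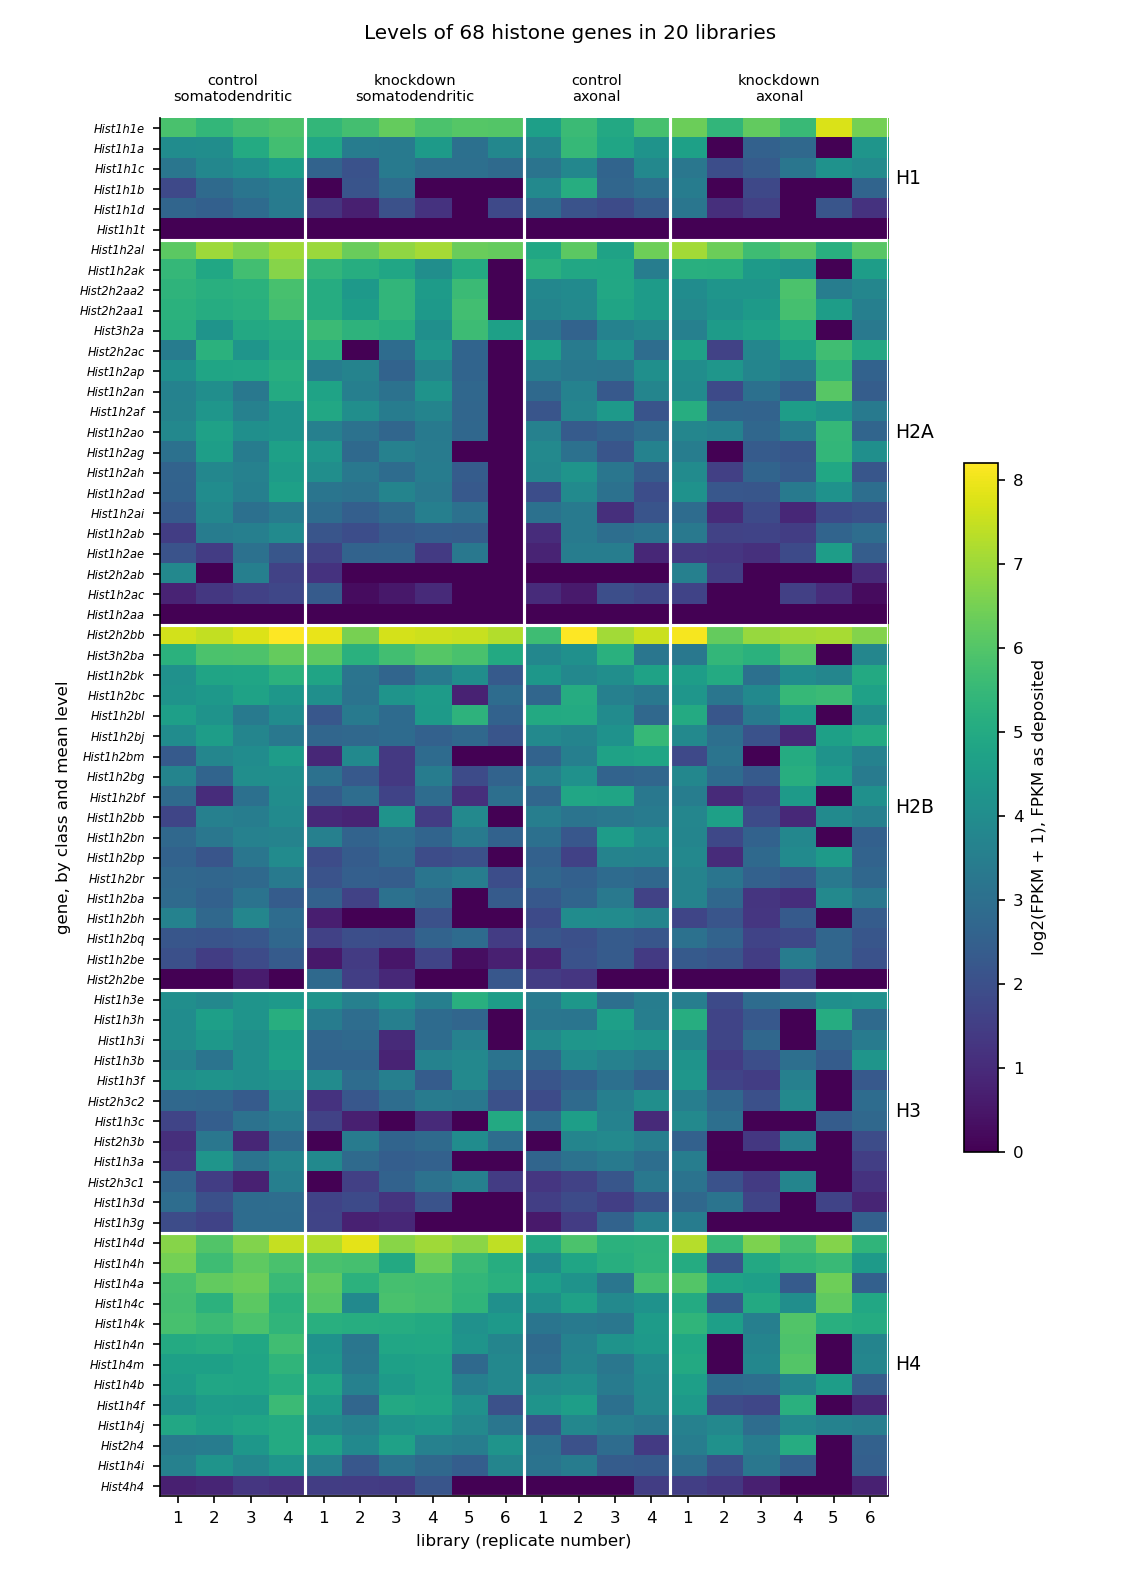
Level of each of the 68 histone genes (rows, grouped by class and ordered by mean) in each of the 20 libraries (columns, replicate numbers within 4 groups), as colour on a log2(FPKM + 1) scale. Dark cells are values at or near 0; the H2A block is dark in somatodendritic knockdown replicate 6, where 17 of 19 members were listed at 0, and Hist2h2bb, Hist1h4d, Hist1h2al and Hist1h1e are the brightest rows.

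The 4 genes above 50 FPKM came from 4 classes. Hist2h2bb, listed as an H2B gene at chr3:96269721-96279001, had the highest mean, 173 FPKM over 20 libraries. Hist1h4d, an H4 gene at chr13:23581598-23581990, averaged 100.2 FPKM. Hist1h2al, listed as an H2A gene, averaged 83.5 FPKM and Hist1h1e, which encodes an H1 linker histone present in most somatic cells, averaged 63.8 FPKM. No H3 member averaged more than 14.4 FPKM, the level of Hist1h3e. H4 members had the highest class median of member means, 18.7 FPKM, followed by H2A (11.3), H2B (8.80), H1 (7.67) and H3 (6.70).

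Summed by class, H4, H2B and H2A made up most of the summed FPKM of the members. In somatodendritic control libraries the H4 sum was 523 ± 75.5 FPKM, the H2B sum 447 ± 93.5 FPKM and the H2A sum 446 ± 121 FPKM (SD, n = 4). Of that H2B sum, Hist2h2bb averaged 222 FPKM, although its ID belongs to a long non-coding RNA gene in GENCODE M21. Hist1h2al, a processed pseudogene there, averaged 106 FPKM of the H2A sum. The H3 sum was 132 ± 37.5 FPKM and the H1 sum 109 ± 32.8 FPKM. H4 and H3 pack into the nucleosome in equal number, but the H4 sum was above the H3 sum in every library of this group, whose lowest H4 sum was 432 FPKM and whose highest H3 sum was 186 FPKM. In the somatodendritic compartment, all members together came to 1658 ± 337 FPKM in control (n = 4) and 1213 ± 238 FPKM in knockdown libraries (n = 6). The axonal sums were 979 ± 242 FPKM in control (n = 4) and 1110 ± 367 FPKM in knockdown libraries (n = 6), an order that turned on scaled FPKM (means of 1366 in control and 1062 in knockdown). Class sums describe the members and were not tested.

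**Figure D2:**
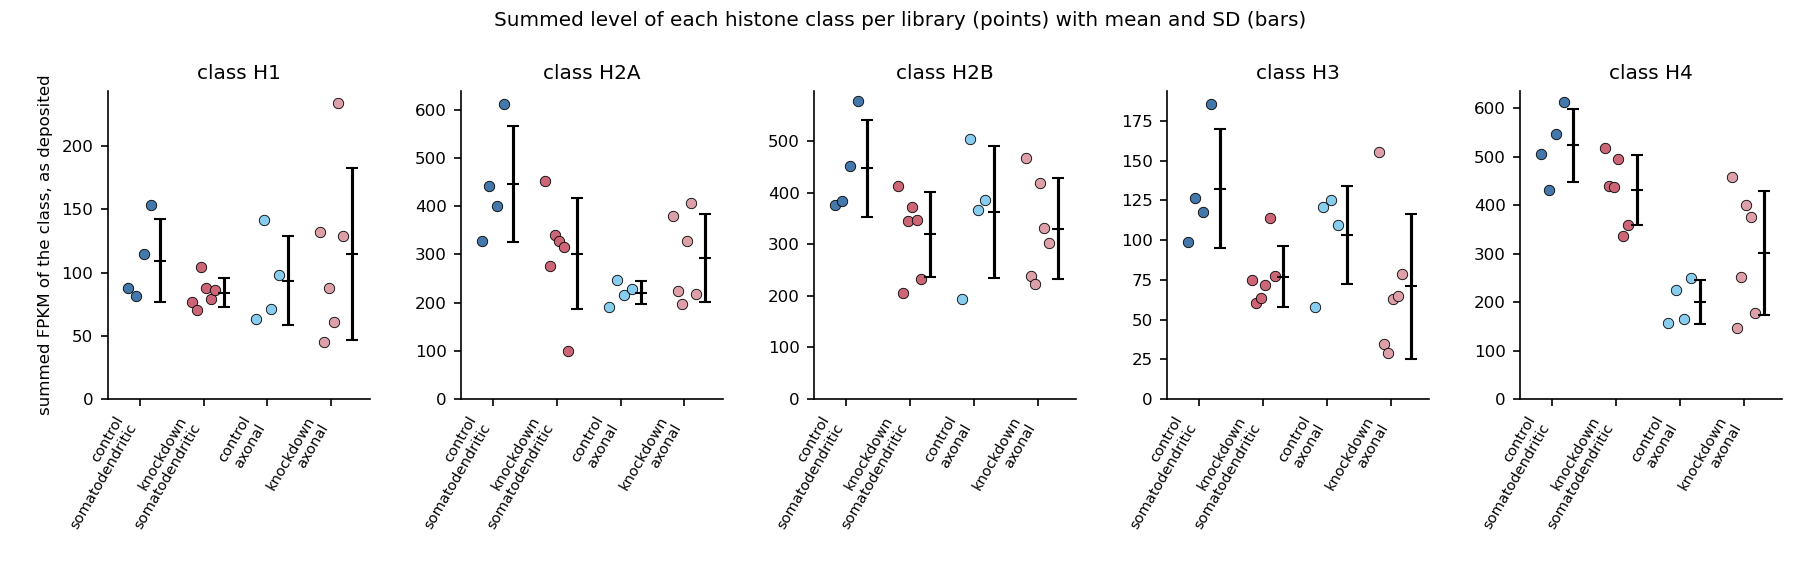
Summed FPKM, as deposited, of the members of each class in each library (points), with the mean and SD of each group (bars), in somatodendritic and axonal control (n = 4 each) and knockdown (n = 6 each) libraries. The H4 and H2A sums of the 4 axonal control libraries lie below all 4 somatodendritic control libraries, and the H3 sums of the somatodendritic knockdown libraries other than replicate 5 do not exceed 77.6 FPKM.

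The first comparison asked whether histone mRNAs differed in the somatodendritic compartment after loss of Tdp-43. Most histone genes had a log2 difference below 0 between Tdp-43 knockdown and control motoneurons, in all 5 classes, but only 2 passed the adjusted threshold: Hist1h2bh, an H2B gene, and Hist1h4j, an H4 gene. Of 66 members tested, 63 had a log2 difference below 0 (95.5%), against 59.3% of all 13762 genes tested. The median log2 difference of the members was −1.15, against −0.13 over all genes. An unadjusted p under 0.05 with a lower level was reached by 32 members (48.5%), against a background of 9.22%, and 0 members reached it with a higher level, against 4.59%. With limma and Benjamini-Hochberg adjustment over all genes, 2 members were downregulated (background 0.756%) and 0 were upregulated (background 0.218%).

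Hist1h2bh was at 11.4, 5.78, 12.5 and 6.44 FPKM in the 4 somatodendritic control libraries. In the 6 knockdown libraries the lowest value was 0, the median 0 and the highest 3.12 FPKM. The groups did not overlap, and 4 knockdown libraries were listed at 0. The fitted log2 difference was −2.92 (SE 0.489, adjusted p = 0.0129 by limma), from at most 3.87 implied fragments in any control library.

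Hist1h4j was at 29.6, 24.3, 27.5 and 31.2 FPKM in somatodendritic control libraries and ranged from 8.44 to 19.8 FPKM with a median of 13.9 FPKM in knockdown libraries. Every knockdown library was below every control library. Its log2 difference was −1.18 (SE 0.238, adjusted p = 0.0372 by limma), and it lost the call when any 1 of 7 libraries was left out (adjusted p up to 0.126) and on the FPKM as deposited (0.0728). Hist1h2bh lost it without control replicate 1 (adjusted p = 0.0585 by limma) or 3 (0.0676), and with a pseudocount of 0.1 (0.0603).

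The differences ran through all classes. All 5 H1 members tested and all 18 H2A members tested had a difference below 0, as did 17 of 18 H2B, 11 of 12 H3 and 12 of 13 H4 members. The class medians were −1.31 for H1, −1.31 for H2A, −1.0 for H2B, −1.31 for H3 and −0.86 for H4. Lower levels at an unadjusted p under 0.05 were found for 4 H1, 5 H2A, 9 H2B, 6 H3 and 8 H4 members, where the background is 9.22% of all genes. The H2A count was 3 without control replicate 2, 3 or 4, and the H2B count 5 without control replicate 4. On the scaled values the groups did not overlap for 16 members (24.2%), all of them lower, against backgrounds of 3.6% lower and 1.9% higher. On the FPKM as deposited the all-gene median moved to 0.04, and the member median was −0.95 with 58 members below 0.

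**Figure D3:**
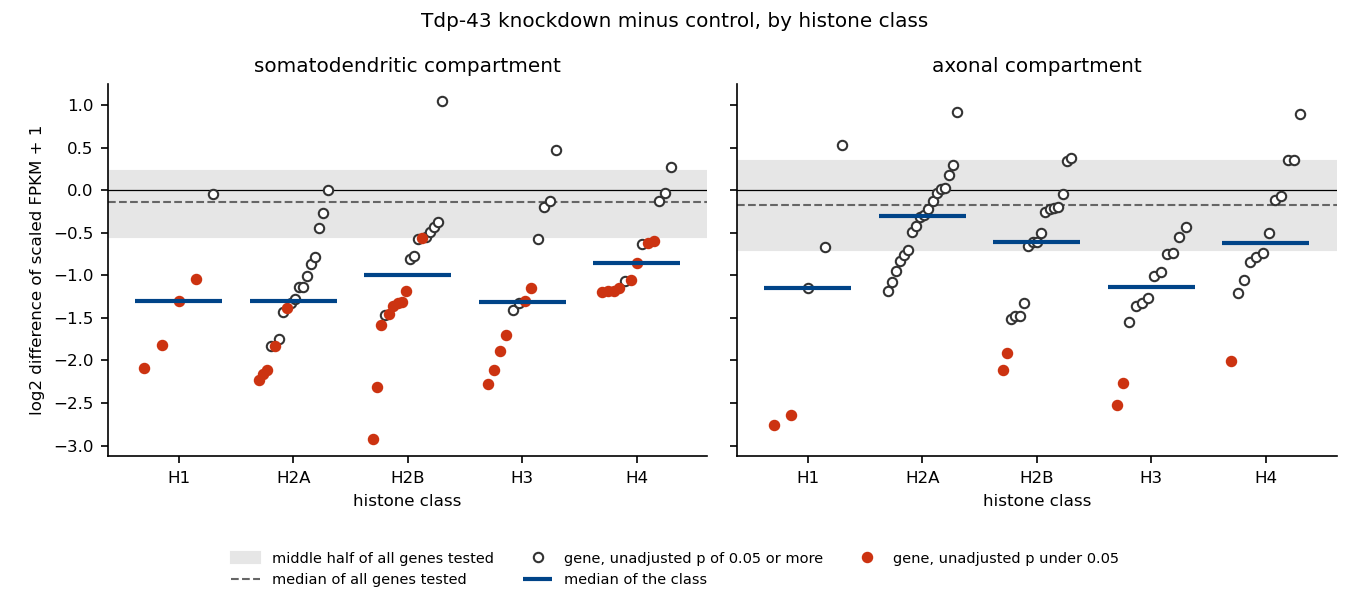
Log2 difference between Tdp-43 knockdown and control of every histone gene tested (points; filled where the unadjusted p was under 0.05), by class, in the somatodendritic (left) and axonal (right) compartment, with the class median (thick line), and the median (dashed) and middle 50% (grey) of all genes tested. In the somatodendritic compartment all 5 class medians lie between −1.31 and −0.86, while the median of all genes is −0.13.

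Other members did not pass the adjusted threshold but showed the same separation. Hist1h2bj, an H2B gene and the third by lowest p, was at 14.9, 23.0, 12.3 and 8.68 FPKM in control and at 3.46 to 6.25 FPKM (median 5.66) in knockdown libraries, with an adjusted p of 0.0523 (limma). Hist1h4k, an H4 gene, was at 55.9, 47.7, 58.4 and 40.8 FPKM in control and at 17 to 35.6 FPKM (median 31.8) in knockdown libraries, with an adjusted p of 0.062 (limma). In both genes no library of one group reached the range of the other. Hist1h3i, an H3 gene, was at 15.2, 20.0, 15.5 and 22.7 FPKM in control and at 0 to 11.2 FPKM (median 5.74) in knockdown libraries (log2 difference −2.28, adjusted p = 0.0957 by limma). Hist1h3h, another H3 gene that shares 79.3% of its windows with Hist1h3i, had a log2 difference of −2.12.

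Among the H1 genes, Hist1h1a (log2 difference −1.05), Hist1h1b (−2.09), Hist1h1c and Hist1h1d (−1.82) lay well below 0 and Hist1h1e did not. Hist1h1c, a linker histone also made in non-dividing cells, was at 8.33, 13.1, 16 and 22.9 FPKM in control and at 3.19 to 9.15 FPKM (median 6.56) in knockdown libraries, a log2 difference of −1.31. Hist1h1b, a linker histone of proliferating cells, was at 2.50 to 9.86 FPKM in control and was listed at 0 in 4 of 6 knockdown libraries. Hist1h1e was at 42.4 to 59.97 FPKM in control and 42.3 to 76.3 FPKM in knockdown libraries, overlapping groups with a log2 difference of −0.05. The H1 sum, to which Hist1h1e contributes most, was 109 ± 32.8 FPKM in control and 84.2 ± 11.8 FPKM in knockdown libraries.

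The 4 most abundant members had smaller differences, Hist1h1e among them. Hist1h4d, the top H4 gene, was at 61.9 to 177 FPKM in control and at 106 to 235 FPKM in knockdown libraries, a log2 difference of 0.28. Hist1h2al was at 69.3 to 132 FPKM and 76.3 to 137 FPKM (log2 difference −0.26), and Hist2h2bb at 173 to 296 FPKM and 90.9 to 244 FPKM (−0.56). On the FPKM as deposited, the knockdown to control ratio of mean sums was 0.582 for H3, 0.677 for H2A, 0.713 for H2B, 0.769 for H1 and 0.824 for H4, with overlapping groups in every class. In H1, H2B, H3 and H4 all 6 knockdown libraries were below the control mean, and in H2A 5 of 6 were. On scaled FPKM the H2B, H3 and H4 sums of the knockdown libraries all lay below those of the control libraries, while H1 and H2A still overlapped, and the log2 ratio for H4 was −0.50 (−0.28 as deposited).

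Besides Hist1h4d, the members above 0 were Hist2h2be and Hist2h3b. Hist2h2be, an H2B gene known for a polyadenylated mRNA, was listed at 0 in 3 of 4 control and in 2 of 6 knockdown libraries, with 6.04 FPKM as its highest value (log2 difference 1.05, adjusted p = 0.479 by limma). Hist2h3b, an H3 gene, had a log2 difference of 0.47. Hist1h2bc, also known for expression outside S phase, was at 17.7 to 25.5 FPKM in control and 0.737 to 21.5 FPKM in knockdown libraries (log2 difference −1.32, adjusted p = 0.342 by limma).

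By position, the 53 Hist1 genes tested had a median of −1.19 with 52 below 0, and the 10 Hist2 genes a median of −0.57 with 8 below 0. Hist3h2a had a log2 difference of −0.00, Hist3h2ba −0.37 and Hist4h4 −0.03, which turned to 0.50 without the libraries under a relative depth of 0.5. The 14 tested members with AATAAA in the last 50 bases had a median of −0.44 and the other 52 a median of −1.24. Without the libraries under a relative depth of 0.5 these gaps narrowed, to −0.84 for Hist1 and −0.59 for Hist2, and to −0.43 with and −0.81 without AATAAA. The 26 members with the common stem-loop (median −1.32) and the 19 with other forms (−1.15) were close to each other, and at −0.81 and −0.84 stood in the other order in the deeper libraries. The 35 members with a mean of at least 10 FPKM (−1.14) and the 31 tested below it (−1.19) were also close. These splits were not tested against each other.

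Depth moved with this result. Without the libraries under a relative depth of 0.5, which removes somatodendritic knockdown replicates 5 and 6, 62 of 66 members were below 0, the median was −0.66 (all genes −0.03), 29 members had a lower level at an unadjusted p under 0.05 (background 9.38%) and 5 were lower past the adjusted threshold of limma (background 1.03%): Hist1h2bh, Hist1h4j, Hist1h3h, Hist1h3i and Hist1h2ap. The H2A median was −0.57 in that fit, and −0.63 without replicate 6 alone, whereas the H3 median was −1.14.

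**Figure D4:**
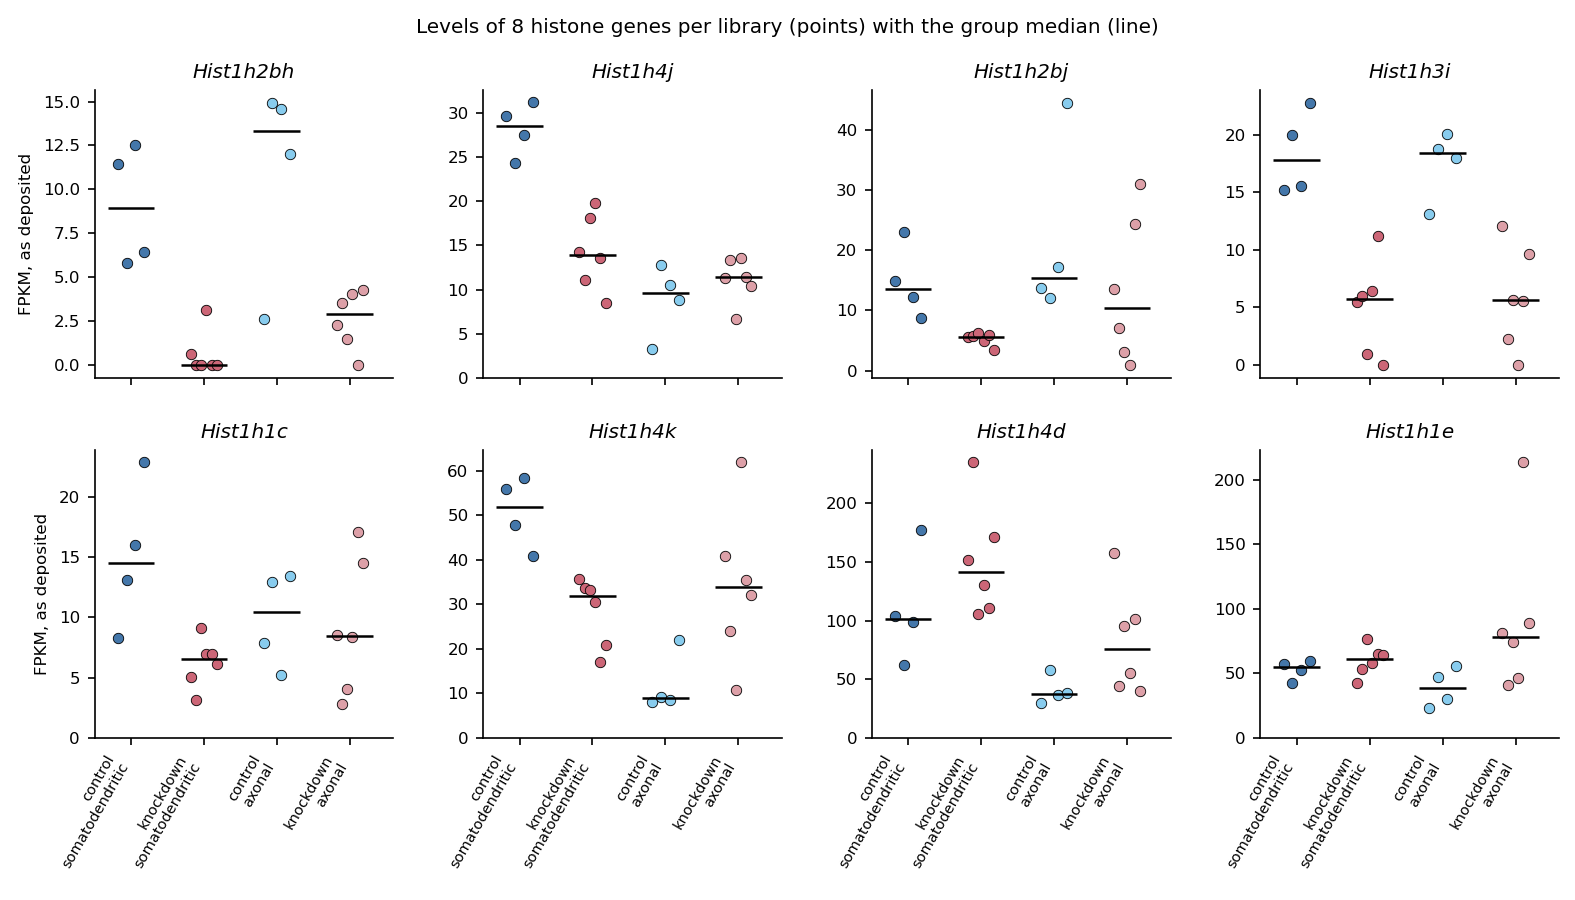
FPKM, as deposited, of 8 histone genes in each library (points) with the group median (line), in somatodendritic and axonal control (n = 4 each) and knockdown (n = 6 each) libraries. Hist1h2bh, Hist1h4j, Hist1h2bj, Hist1h3i and Hist1h4k separate control from knockdown libraries in the somatodendritic compartment, and Hist1h4d and Hist1h1e do not.

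The second comparison asked the same of the axonal compartment. Most histone genes lay below 0 here too, and no member passed the adjusted threshold. Of 64 members tested, 53 were below 0 (82.8%), against 58.7% of 13958 genes, and the median was −0.66, against −0.17 over all genes. An unadjusted p under 0.05 with a lower level was reached by 7 members (10.9%; background 6.46%) and with a higher level by 0 (background 2.14%). The adjusted threshold of limma was passed by 0 members (background 0.387% lower and 0.0143% higher), and on the scaled values the groups did not overlap for 2 members, both lower (3.12%; background 2.02%). Without the library labelled knockdown replicate 1, whose Tardbp level lay above the controls, 11 of 63 members had a lower level at an unadjusted p under 0.05 (background 7.17%), and the median was −0.75.

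All 12 H3 members were below 0, with a class median of −1.13, and 4 of 5 H1 members, with a median of −1.15. The medians were −0.60 for H2B, −0.62 for H4 and −0.30 for H2A, where 13 of 18 members were below 0. The H4 median was −0.27 without knockdown replicate 2, −0.40 without knockdown replicate 6 and −0.37 without control replicate 4, the H2B median −0.36 without knockdown replicate 3, and the H2A median −0.46 without knockdown replicate 4. The axonal values came from few fragments, and the all-gene median depended on scaling. On the FPKM as deposited, the all-gene median was 0.23 and the member median −0.21. The H3 median was −0.70 with 12 of 12 below 0 on that scale, while the H2A median was 0.18 and thus changed sign.

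The 3 members with the lowest unadjusted p were Hist1h3i, Hist1h1b and Hist1h3a, each with an adjusted p of 0.223 (limma). Hist1h3i was at 13.1, 18.8, 20.0 and 18 FPKM in axonal control libraries and at 0 to 12.1 FPKM (median 5.60) in knockdown libraries. The groups were separate, as in the somatodendritic compartment, and the log2 difference was −2.27 (SE 0.63). Hist1h3a, an H3 gene, was at 5.41 to 9.56 FPKM in control and was listed at 0 in 4 of 6 knockdown libraries.

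Hist1h1b was at 13.4, 34.0, 5.53 and 7.04 FPKM in control libraries and was listed at 0 in 3 of 6 knockdown libraries, with 9.80 FPKM as the highest value. Hist1h1a, a second H1 gene without windows shared with other members, was at 12.3 to 43.9 FPKM in control and 0 to 24.4 FPKM in knockdown libraries (log2 difference −2.64, adjusted p = 0.306 by limma). Hist1h2bh, the member with the largest somatodendritic difference, was at 2.60 to 14.9 FPKM in control and 0 to 4.29 FPKM in knockdown libraries (−2.11, adjusted p = 0.301 by limma). By contrast, Hist1h1e was at 23.6 to 55.9 FPKM and 40.9 to 214 FPKM (0.54), and Hist1h4k at 8.05 to 22.0 FPKM and 10.7 to 62.0 FPKM (0.90).

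As deposited, axonal class sums were lower in knockdown for H3 and H2B and higher for H1, H2A and H4, within overlapping groups. The H3 sum was 103 ± 30.9 FPKM in control (n = 4) and 70.9 ± 45.5 FPKM in knockdown libraries (n = 6). The H4 sum was 199 ± 45.3 and 302 ± 128 FPKM, the H2A sum 221 ± 23.3 and 292 ± 91.0 FPKM, the H2B sum 362 ± 127 and 330 ± 97.4 FPKM and the H1 sum 93.6 ± 35.1 and 115 ± 68.2 FPKM. The higher H2A sum turned with scaling (log2 ratio 0.41 as deposited and −0.13 on scaled FPKM), and H1 (0.30) turned on scaled FPKM (−0.22) and when log2 levels were averaged over members (−0.75). The H4 log2 ratio went from 0.60 as deposited to 0.04 on scaled FPKM, that of H2B from −0.13 to −0.67 and that of H3 from −0.54 to −1.11, with overlapping groups on both scales. Leaving out 1 library also turned the deposited ratios of H1, to −0.04 without knockdown replicate 5, and H2B, to 0.07 without control replicate 2. The deposited H3 ratio ran from −0.94, without the library labelled knockdown replicate 1, to −0.38. Without the 3 axonal knockdown libraries under a relative depth of 0.5, replicates 2, 4 and 5, the fitted member median was −0.55 (all genes 0.06) with 53 of 64 below 0.

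The third comparison set axons against the somatodendritic compartment of control motoneurons. All H4 genes tested lay below 0 in axons, of which 1, Hist1h4k, passed the adjusted threshold, whereas H1, H2B and H3 genes lay on both sides of 0. Over all 64 members tested, 38 were below 0 (59.4%, against 53% of 13760 genes), and the median was −0.12 (all genes −0.06). A lower level at an unadjusted p under 0.05 was found for 14 members (21.9%; background 11.8%) and a higher level for 2 (3.12%; background 11.1%). The lower count was 9 without somatodendritic control replicate 3 or 4, the higher count 6 without axonal control replicate 1, and the median ran from −0.33 (without somatodendritic control replicate 1) to −0.01 (without somatodendritic control replicate 4). With limma, 1 member was lower at an adjusted p under 0.05 (background 2.97%) and 0 were higher (background 3.93%). On the scaled values the groups did not overlap for 6 members, all lower (9.38%; backgrounds 8.54% lower and 7.65% higher).

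All 12 H4 members tested were below 0, with a median of −0.89, and 8 of the 14 lower members belonged to H4 (5 of 10 without axonal control replicate 1 and 5 of 9 without somatodendritic control replicate 4). The H2A median was −0.46 with 15 of 18 below 0. The medians of H2B (0.27), H3 (0.23) and H1 (0.02) were at or above 0. Leaving out 1 library at a time gave −0.96 to −0.76 for H4, −0.60 to −0.24 for H2A and 0.19 to 0.39 for H2B, but H3 (−0.07 to 0.52) and H1 (−0.14 to 0.24) changed sign. The H2A median was −0.24 without somatodendritic control replicate 4, the H3 median was −0.07 without somatodendritic control replicate 1 and −0.01 without axonal control replicate 4, and the H1 median was below 0 without axonal control replicate 2 or 4 or somatodendritic control replicate 2. H4 is also the class without the common stem-loop: the 18 members tested with another stem-loop form had a median of −0.70 and the 26 with the common form 0.00. Most of those 18 were H4 genes, so that this split largely restates the H4 result and cannot bear on the stem-loop form. H2A, in which 10 of 11 stem-loops have the common form, also lay mostly below 0.

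Hist1h4k was at 8.05, 9.21, 8.62 and 22.0 FPKM in axonal control libraries and at 55.9, 47.7, 58.4 and 40.8 FPKM in somatodendritic control libraries. All axonal values were below all somatodendritic ones, although axonal replicate 4 stood above the other 3. The log2 difference was −1.60 (SE 0.329, adjusted p = 0.0176 by limma). The call was lost without somatodendritic control replicate 1 (adjusted p = 0.0648 by limma), 2 (0.058) or 3 (0.0674).

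Hist1h4j was at 3.24 to 12.8 FPKM in axonal and 24.3 to 31.2 FPKM in somatodendritic control libraries, again without overlap (log2 difference −1.196, adjusted p = 0.0801 by limma). Hist1h4d, the most abundant H4 gene, was at 29.9 to 57.8 FPKM in axonal and 61.9 to 177 FPKM in somatodendritic libraries (−0.84, adjusted p = 0.124 by limma). Hist1h3f, an H3 gene, was at 3.45 to 7.13 FPKM in axonal and 15.9 to 17.9 FPKM in somatodendritic libraries (−1.11, adjusted p = 0.0562 by limma), unlike most H3 genes. Hist3h2a and Hist3h2ba, an H2A and an H2B gene that lie side by side on chromosome 11, differed by −1.07 and −1.23. On the other side, Hist1h2bf, an H2B gene, and Hist1h1b had a log2 difference of 1.64 and 1.32.

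As deposited, the H4 sum was 199 ± 45.3 FPKM in axonal and 523 ± 75.5 FPKM in somatodendritic control libraries (n = 4 each), a ratio of 0.381. The H2A sums were 221 ± 23.3 and 446 ± 121 FPKM, a ratio of 0.495. In these classes no axonal library reached a somatodendritic one, while H1 (0.855), H2B (0.81) and H3 (0.782) overlapped. On scaled FPKM the log2 ratio was −0.81 for H4 (−1.39 as deposited) and −0.42 for H2A (−1.01), where the H2A groups overlapped, and those of H1 (0.36), H2B (0.29) and H3 (0.24) turned above 0. Scaling matters to these ratios: on the FPKM as deposited the median of all genes was −0.48 rather than −0.06, the member median was −0.62, and 17 of 64 members passed the adjusted threshold as lower, 10 of them H4 genes, against a background of 12.4%. The H4 median was −1.39 on that scale, and the H2B (−0.15) and H3 (−0.19) medians changed sign.

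**Figure D5:**
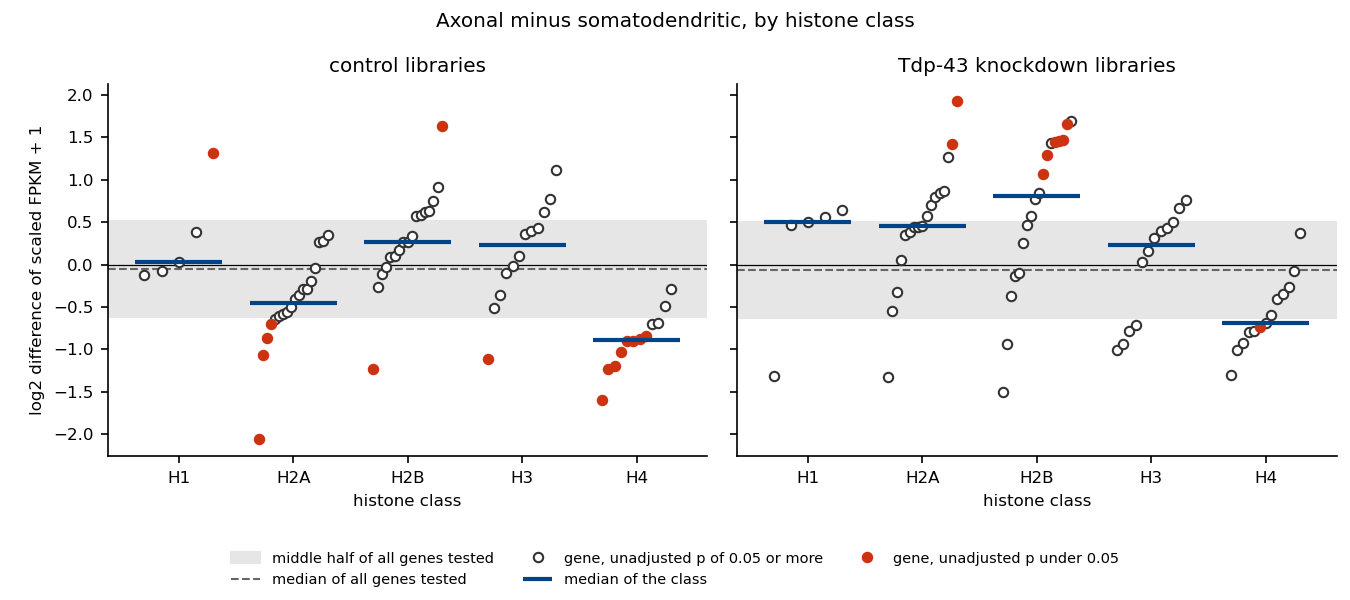
Log2 difference between the axonal and the somatodendritic compartment of every histone gene tested (points; filled where the unadjusted p was under 0.05), by class, in control (left) and Tdp-43 knockdown (right) libraries, with class medians (thick line), and the median (dashed) and middle 50% (grey) of all genes tested. The H4 medians are −0.89 in control and −0.69 in knockdown libraries, the lowest of the 5 classes in both.

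In Tdp-43 knockdown motoneurons the H4 genes were again the class below 0 in axons, with 12 of 13 below 0 and a median of −0.69, which was −0.41 without axonal knockdown replicate 2 and −0.38 without replicate 5. The other medians were 0.81 for H2B, 0.50 for H1, 0.45 for H2A and 0.24 for H3. Leaving out 1 library at a time gave 0.16 to 0.76 for H1, lowest without the axonal library labelled knockdown replicate 1, and −0.06 to 0.37 for H3, which was below 0 without that library (−0.00) or somatodendritic knockdown replicate 6 (−0.06). Over the 65 members tested, 25 were below 0 (38.5%, against 53.2% of 14021 genes) and the median was 0.38 (all genes −0.07). A higher level at an unadjusted p under 0.05 was found for 8 members (12.3%; background 7.86%) and a lower one for 1 (1.54%; background 8.73%). With 1 library left out at a time, the lower count ran from 0 (without somatodendritic knockdown replicate 2) to 4 (without axonal knockdown replicate 4), the higher count ran from 3 (without somatodendritic knockdown replicate 6) to 11 (without axonal knockdown replicate 3), and the H2A median from 0.00 to 0.71, and the member median was 0.10 without the axonal library labelled knockdown replicate 1 and 0.19 without axonal knockdown replicate 6. The adjusted threshold of limma was passed by 0 members (background 0.856% higher and 0.421% lower), and groups did not overlap on the scaled values for 0 members (backgrounds 1.1% higher and 1.37% lower).

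The members with the lowest unadjusted p were the H2B genes Hist1h2be, Hist1h2bg and Hist1h2bc, which lie in the Hist1 cluster and share sequence. Hist1h2be was at 1.83 to 10.0 FPKM (median 3.72) in axonal and at 0.224 to 2.2 FPKM (median 0.556) in somatodendritic knockdown libraries, a log2 difference of 1.65 (adjusted p = 0.107 by limma). Hist1h2bg (4.0 to 34.2 against 1.58 to 9.92 FPKM) and Hist1h2bc (8.29 to 47.0 against 0.737 to 21.5 FPKM) differed by 1.44 and 1.46. Groups overlapped in all 3 genes.

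This excess of axonal values depended on which libraries were kept. Without the libraries under a relative depth of 0.5 the member median was −0.02 (all genes 0.05), with 34 of 66 below 0. In that fit 0 members were higher and 6 lower at an unadjusted p under 0.05 (backgrounds 9.92% and 8.2%). Without somatodendritic knockdown replicate 6 alone the median was −0.00 and the H2A median 0.00. The H4 median was −0.58 in the first of these fits and −0.69 in the second, and the H2B median 0.60 and 0.82. Without the shallow axonal knockdown replicates 2, 4 or 5, the member median was 0.41, 0.26 and 0.36. Without the deeper axonal replicates 1, 3 or 6 it was 0.10, 0.49 and 0.19. The part of depth was not tested.

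Whether the knockdown difference differed between the compartments was tested as an interaction over 14062 genes. Of 64 members, 19 were below 0 (29.7%, against 50.3% of all genes), and the median was 0.37 (all genes −0.01), where a positive value means a smaller decrease or a larger increase in axons. At an unadjusted p under 0.05, 6 members were positive (9.38%; background 2.84%) and 0 negative (background 2.67%), and the adjusted threshold of limma was passed by 0 (background 0% positive and 0.0711% negative). Hist1h4k had the lowest unadjusted p, with a difference of 1.95 (SE 0.576, adjusted p = 0.602 by limma). Its somatodendritic medians were 51.8 FPKM in control and 31.8 FPKM in knockdown libraries, and its axonal medians 8.92 and 33.8 FPKM. Hist2h2ab (3.04) and Hist1h2ap (2.11), both H2A genes, came next. For Hist1h3i the value was 0.01. The member median was 0.18 when that axonal library labelled knockdown replicate 1 was left out, and 0.22 without somatodendritic control replicate 4.

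The other genes of the pathway were taken from lists named with earlier results of these data known. Factors of histone mRNA transcription, 3′ processing and decay (14 of 16 tested) had a median knockdown difference of −0.05 in somatodendritic and −0.19 in axonal libraries, with 1 higher (background 4.59%) and 2 lower (background 9.22%) in the first at an unadjusted p under 0.05, and 0 passed the adjusted threshold of limma in either. Slbp, the stem-loop binding protein, was at 21.6 to 56.6 FPKM in somatodendritic control and 12 to 45.8 FPKM in knockdown libraries (log2 difference −0.54, adjusted p = 0.551 by limma). Histone chaperones, which carry histones to and from DNA (15 of 15 tested), had medians of −0.13 and −0.18.

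Replacement histones, which are made outside S phase from polyadenylated mRNAs, lay on both sides of 0. Of 11 tested in the somatodendritic compartment, 3 were higher (background 4.59%) and 3 lower (background 9.22%) at an unadjusted p under 0.05, and 0 passed the adjusted threshold of limma. H3f3a and H3f3b, which encode the replacement histone H3.3, were at 181 to 225 and 53.3 to 75.7 FPKM in control and at 245 to 383 and 102 to 126 FPKM in knockdown libraries. Neither gene had overlapping groups, with log2 differences of 0.44 and 0.49 (adjusted p of 0.152 and 0.126 by limma). H2afz, the H2A.Z gene, had a difference of −0.60.

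For DNA replication and S phase genes, 24 of 30 tested in the somatodendritic compartment were below 0 in knockdown (median −0.43, against 59.3% of all genes below 0). At an unadjusted p under 0.05, 4 were lower (background 9.22%) and 0 higher. In axons 28 of 34 were below 0 (median −0.56, against 58.7% of all genes), with 4 lower (background 6.46%). Between control compartments 26 of 33 were above 0 in axons (median 0.97), and 7 passed the adjusted threshold of limma as higher (background 3.93%), among them Cdk1, a kinase of the cell cycle (log2 difference 1.67, adjusted p = 0.0117). In that comparison all 12 H4 and 15 of 18 H2A members lay below 0. Above 0, as most of these S phase genes were, lay 13 of 17 H2B, 7 of 12 H3 and 3 of 5 H1 members.

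Cell type markers were summed in the same groups. In the somatodendritic compartment, the summed FPKM of 8 neural progenitor markers was 307 to 547 in control and 196 to 366 in knockdown libraries. On the axonal side it was 622 to 757 and 193 to 1071, and 0 of the 8 were at 0 throughout a group. The sum of 9 motoneuron markers was 166 to 201, 65.6 to 147, 48.9 to 93.9 and 16.9 to 92.7 FPKM in the same order. Nefl, a neurofilament gene of that list, was downregulated in the somatodendritic compartment (log2 difference −1.37, adjusted p = 0.00143 by limma). The sum of 8 fibroblast markers was 29.6 to 62.3, 22.0 to 71.7, 118 to 537 and 97.9 to 675 FPKM. The sum of 8 astroglial markers was 282 to 362, 273 to 481, 76.5 to 461 and 106 to 465 FPKM, and that of 6 Schwann cell lineage markers did not exceed 21 FPKM in any library. In the somatodendritic compartment Nefl was the one gene of these 5 marker lists to pass the adjusted threshold of limma between conditions, and in axons 0 did. Between control compartments, 2 of 8 progenitor and 2 of 4 tested fibroblast markers passed it as higher in axonal libraries (background 3.93%). There, 1 of 3 tested motoneuron markers passed it as lower (background 2.97%). Between knockdown compartments, 1 of 8 progenitor and 2 of 6 tested fibroblast markers passed it as higher (background 0.856%). The part of cell makeup in the histone differences was not tested.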

How the data were processed

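The deposited files hold 1 table per library with FPKM and its interval for each gene; per the labels the authors used FastQC 0.10.1, Cufflinks 2.2.1 and GRCm38, and the aligner, filters and test are not given in the sources used here. Read counts were not used here, so that depth is known only as implied fragments, taken from the upper bound of that interval read as 2 SD of a count. Implied fragments hold no spread between libraries, and PCR copies are not independent molecules. For members with shared sequence they can lie far below 1 at a level above 0. Hist1h2be had 0.0031 implied fragments at 0.224 FPKM in somatodendritic knockdown replicate 5. Such numbers are not plain read counts. Relative depth was taken over 680 genes with over 3 implied fragments in every library. A value at or under 0.001 FPKM was read as listed at 0.

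Libraries of a comparison (for the interaction, of a compartment) were brought to 1 scale by their median ratio to the geometric mean, using genes that reached 1 FPKM in all of them. Values were then taken as log2(FPKM + 1) and fitted with limma 3.58.1 in R 4.3.3 (lmFit, eBayes with a trend) where the mean was 1 FPKM or more, with Benjamini-Hochberg adjustment over all genes and a threshold of 0.05. Fold changes on this scale understate the change of low genes. The fit was tested on simulated data. The members and lists were chosen with earlier results of these data known. Named genes were the 3 highest members of each class, members past the adjusted threshold or, where fewer than 3 passed, the 3 with the lowest p, Hist1h1c, Hist1h2bc, Hist2h2be, Hist3h2a and Hist4h4, Tardbp, and up to 4 highest genes of each list. Hist1h1d, Hist1h2ao, Hist1h2aa, Hist1h1t, Hist1h2bf, Hist1h2bq, Hist1h3g, Hist2h2ac, Hist2h3b and Hist2h4 were named after their values were seen. Sequences came from GENCODE M21. Alternatives were other scalings, pseudocounts of 0.1 and 5, no filter, a replicate block, and leaving out libraries.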

Additional observations from a re-analysis of the deposited data

Results flagged for a closer look

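For named members and class sums, 143 groups of libraries were examined for a library far from the others by Dixon's test, and 14 values stood out. A group listed at 0 in all libraries but 1 stands out whatever that value is, and members share sequence. The number of flagged values was therefore not set against chance. Of the axonal control libraries, replicate 4 held 44.5 FPKM of Hist1h2bj, 22.0 FPKM of Hist1h4k and 1.82 FPKM of Hist4h4, and replicate 3 held 24.03 FPKM of Hist1h3h. Of the somatodendritic control libraries, replicate 3 held 0.53 FPKM of Hist2h2be, which was listed at 0 in the other 3.

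Of the axonal knockdown libraries, replicate 1, in which Tardbp was not lowered, held 271 FPKM of Hist2h2bb, 10.2 FPKM of Hist1h3a and 10.8 FPKM of Hist2h2ab. Replicate 4 held 58.5 FPKM of Hist2h2aa2 and 1.67 FPKM of Hist2h2be, and the shallowest library, replicate 5, held 214 FPKM of Hist1h1e. Of the somatodendritic knockdown libraries, replicate 1 held 1.32 FPKM of Hist2h2ab, replicate 4 held 3.12 FPKM of Hist1h2bh, and the H3 sum of replicate 5 was 114 FPKM. No member differed between the compartments in its knockdown difference at an adjusted p under 0.05 by limma, and 6 did at an unadjusted p under 0.05.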

How the results depend on the processing

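Few fragments per member limit what single genes can show. In every fit run without leaving out a single library, the member median was below 0 in both knockdown comparisons, with 58 to 63 members below 0 in the somatodendritic and 40 to 54 in the axonal compartment. Named members kept their side of the threshold in 485 of their somatodendritic knockdown values, gained a call in 11 and lost it in 13. A change of direction between values without a call was not counted. Hist4h4, for example, went from −0.03 to 0.50 in the libraries of at least 0.5 relative depth. In the control compartments they kept their side in 401 values, gained a call in 15 and lost it in 4. No named member changed a call in the axonal, knockdown compartment or interaction comparisons. Causes of the changes below were not tested unless the setting itself uses fewer genes or libraries.

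For the somatodendritic knockdown comparison (134 genes and 2 members called), FPKM as deposited gave 233 genes and 1 member, a pseudocount of 0.1 gave 1 member, a pseudocount of 5 gave 212 genes and 8 members, and libraries of at least 0.5 relative depth gave 5 members and a median of −0.66. For the axonal one (56 genes), a pseudocount of 0.1 gave 30 genes. For the control compartments (949 genes, 1 member), FPKM as deposited gave 2055 genes, 17 members and a median of −0.62, and quantile normalization and no filter gave 2 members each. For the knockdown compartments (179 genes), a pseudocount of 0.1 gave 74, no filter 52 and the deeper libraries 76 genes.

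Leaving out 1 library gave 58 to 198 genes and 0 to 5 members in the somatodendritic and 37 to 70 genes in the axonal knockdown comparison. It gave 364 to 1559 genes and 0 to 4 members in the control and 24 to 439 genes in the knockdown compartments.

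Class log2 ratios of mean sums moved with the measure. With a mean of log2(FPKM + 1) over members, the somatodendritic knockdown ratio was −0.91 for H1 and −0.53 for H4, and the axonal H1 ratio turned from 0.30 to −0.75. With scaled FPKM the axonal knockdown H2A ratio turned from 0.41 to −0.13, and the control compartment ratios were −0.42 for H2A and −0.81 for H4, and turned to 0.36 for H1, 0.29 for H2B and 0.24 for H3. Leaving out Hist2h2bb and Hist1h2al, an alternative chosen after seeing the data, moved the H2A and H2B ratios by less than the spread between replicates.

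Correlations of libraries with the same replicate number were −0.11 to 0.18, and in no set of pairs were all above 0.1. Between conditions in axons, replicates 1, 3 and 4 (0.11, 0.16 and 0.10) correlated best with their own number and replicate 2 (−0.02) did not. The numbers were not read as pairs. The block also took the adjusted p of Hist1h2bh to 0.13 and of Hist1h4j to 0.125 (somatodendritic knockdown), and of Hist1h4k to 0.0561 (control compartments), by limma. With a replicate block the calls were 18 genes, 0 members and a member median of −0.68 (somatodendritic knockdown), 35 genes (axonal knockdown), 430 genes and 0 members (control compartments), 13 genes (knockdown compartments) and 6 genes against 10 (interaction).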
